A study of Homo sapiens with 14 samples.

Results

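ATP-binding cassette (ABC) genes were followed across drug treatment and early drug resistance in MOLM14, a human myeloid leukaemia line that carries an FLT3 internal tandem duplication. Members were taken as the protein-coding genes whose symbol is ABC, a letter from A to G and a number. There were 45 of them among 39293 genes in the table, and 33 passed the filter on low counts and were tested. ABCC13, which carries such a symbol but is annotated as a pseudogene, was left out. By subfamily, the tested members were 9 of 12 in A, 7 of 9 in B, 8 of 11 in C, 4 of 4 in D, 1 of 1 in E, 3 of 3 in F and 1 of 5 in G.

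RNA sequencing covered 14 libraries in 4 arms. FGF2 early cells (4 flasks) and FL early cells (4 flasks) were resistant to gilteritinib, which blocks the kinases FLT3 and AXL, were kept with FGF2 or with FL, the ligand of FLT3, at 10 ng/mL, and were given gilteritinib at 100 nM for 48 h before harvest. The acute arm (3 libraries) was parental MOLM14 given 100 nM gilteritinib for 48 h, 1 library each of drug alone, drug with FGF2 at 10 ng/mL and drug with FL at 10 ng/mL. The parental arm (3 libraries) was untreated MOLM14. All arms come from 1 cell line, only the acute and early arms had drug, and the spread within the acute arm includes the ligand differences. The labels do not say that flasks or parental libraries were derived independently, so p-values measure the spread between these samples, which may be technical.

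ABC proteins use the binding and hydrolysis of ATP to move substrates across membranes. Plasma membrane members of subfamilies B, C and G can pump drugs and their conjugates out of leukaemia cells. Others carry lipids (A), serve mitochondria (B) or peroxisomes (D), or, in subfamilies E and F, lack membrane-spanning domains and act on ribosomes and translation.

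Total counts per library ran between 25723575 and 33075041. All 8 myeloid markers checked, among them CD33, SPI1 and MPO, were at 1 CPM or more in every library, where CPM is the count scaled to a common library size. Their summed level was 963 to 1089 CPM in FGF2 early, 1812 to 2362 CPM in FL early, 1686 to 1977 CPM in acute and 1031 to 1059 CPM in parental libraries, and the part of this difference in the results below was not tested. Summed T cell, B cell and erythroid markers stayed at or under 1.26 CPM in every library. Of 4 epithelial markers, 2 (KRT8 and KRT18) were at 1 CPM or more in every library, and the sum of the 4 was 12.9 to 38.0 CPM.

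Calls against parental cells were most with acute drug and fewer in both resistant arms under the same drug, for ABC members as for all genes. This order is therefore not particular to the family. In acute against parental cells 11 members rose and 6 fell, at an adjusted p under 0.05 in edgeR's quasi-likelihood test with Benjamini-Hochberg adjustment over 15756 genes. Of all genes tested, 62.6% were called in that comparison (32.3% higher, 30.3% lower), so a member's call there is not unusual. In bulk RNA, fewer cells of a kind and less RNA per cell cannot be told apart. The members that rose included the lipid transporter ABCA7 and the conjugate exporters ABCC2, ABCC6 and ABCC10. Those that fell included the mitochondrial ABCB10, the peroxisomal ABCD3 and the ribosome recycling factor ABCE1. Changes of at least 2-fold were called for 9 members upward and 3 downward, where 30.9% of all genes had such a change in either direction.

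Resistant cells differed from parental cells at fewer members, and at fewer of all genes. In FGF2 early cells 5 members rose and 6 fell, with 30.4% of all genes called (13.3% higher, 17.1% lower). In FL early cells 2 rose and 3 fell, with 20.7% of all genes called (10.9% higher, 9.76% lower). ABCA7 and ABCC6 were higher and ABCB10, ABCC4 and ABCD2 lower in both resistant arms, which share the same parental libraries. Called changes of at least 2-fold were all downward, 4 in FGF2 early and 2 in FL early cells, against 8.76% and 5.23% of all genes in either direction. Of all 15756 genes tested, 408 rose and 972 fell by at least 2-fold in FGF2 early cells. In FL early cells 486 rose and 338 fell by that much. Early cells of both arms averaged, set against acute cells, had 9 members higher and 13 lower, with 66% of all genes called (32.1% higher, 33.9% lower) and 28% called with at least a 2-fold change. That comparison shares its early libraries with the others and its acute libraries with the acute response. The median log2 fold change over the 33 tested members was 0.24 in FGF2 early against parental, 0.06 in FL early against parental, 0.25 in acute against parental and −0.27 in early against acute, where the medians over all genes were 0.01, 0.01, 0.07 and −0.04.

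**Figure D1:**
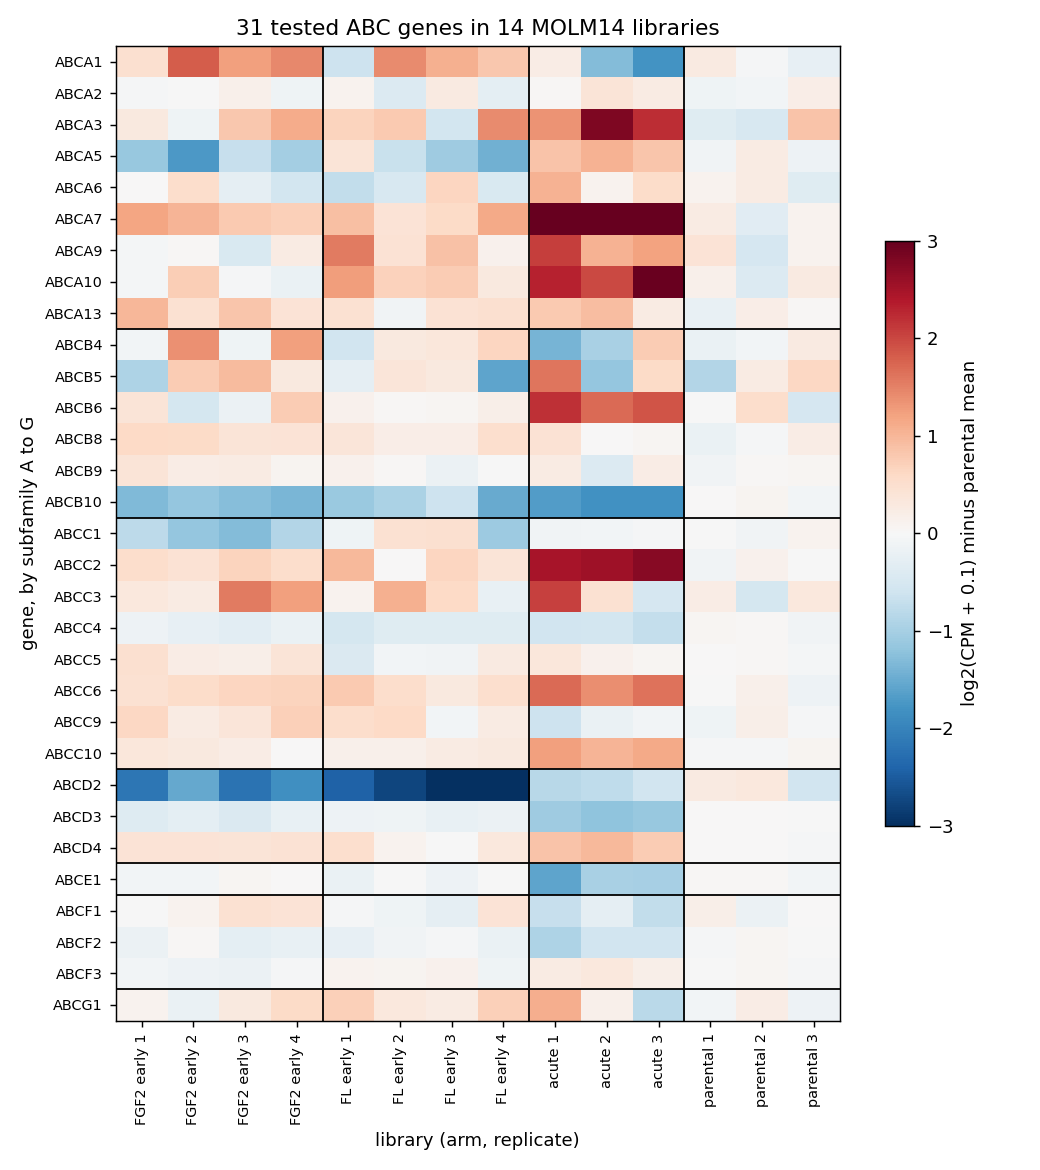
Level of 31 of the 33 tested ABC genes (rows, by subfamily) in each of the 14 libraries (columns, by arm), as log2(CPM + 0.1) minus the mean of the 3 parental libraries, with colours ending at 3 in either direction. ABCA7, ABCC2 and ABCB6 are raised in all 3 acute libraries, ABCB10 is lowered in all 11 treated libraries, and ABCD2 is lowered most in FL early libraries.

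Across the family, 24 of the 33 tested members were called in at least 1 of the 5 comparisons and 16 of them with at least a 2-fold change. The matching shares over all genes were not counted, so these counts do not set the family apart. In early against acute cells alone 66% of all genes were called, and in acute against parental cells alone 30.9% were called with at least a 2-fold change. The 9 members called in no comparison were ABCA2, ABCA6, ABCA13, ABCB4, ABCB5, ABCB9, ABCC3, ABCC5 and ABCG1. Summed over the family, expression was 1145 to 1191 CPM in FGF2 early, 1115 to 1252 CPM in FL early, 1338 to 1424 CPM in acute and 1256 to 1294 CPM in parental libraries. The acute libraries were highest and both early arms lowest, and the early sums did not reach the parental ones. The nearest early and parental sums were 1252 and 1256 CPM, in FL early replicate 3 and parental replicate 1. Abundant members weigh most in a sum. ABCB10 averaged 89.0 CPM in FGF2 early, 108 CPM in FL early and 217 CPM in parental cells. ABCA7 averaged 305 CPM in acute and 24.4 CPM in parental cells. Subfamily A made up 572 to 670 CPM of the acute sums and 272 to 333 CPM of the parental sums. Subfamily B went the other way, at 147 to 172 CPM in acute and 295 to 314 CPM in parental libraries.

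The promoters of 4 members are shown because these are, among the tested members with a mean log2 CPM of 0 or more, the 2 that rose most and the 2 that fell most in acute against parental cells. Each line gives the 250 bases upstream of the start of the gene on its own strand, 5′ to 3′, from RefSeq on GRCh38.p14. Capitals mark the GC box GGGCGG and the CCAAT box CCAAT, found on either strand, and ABCC2 and ABCE1 hold neither in this window. The windows are chr19:1039857-1040106 (plus strand) for ABCA7, chr10:99782390-99782639 (plus) for ABCC2, chr1:229558708-229558957 (minus) for ABCB10 and chr4:145098061-145098310 (plus) for ABCE1.
ABCA7: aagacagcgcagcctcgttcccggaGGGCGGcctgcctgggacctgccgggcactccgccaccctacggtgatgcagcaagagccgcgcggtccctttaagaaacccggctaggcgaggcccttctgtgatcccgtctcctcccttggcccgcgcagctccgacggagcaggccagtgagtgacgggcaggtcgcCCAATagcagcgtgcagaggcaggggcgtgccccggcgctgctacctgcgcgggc
ABCC2: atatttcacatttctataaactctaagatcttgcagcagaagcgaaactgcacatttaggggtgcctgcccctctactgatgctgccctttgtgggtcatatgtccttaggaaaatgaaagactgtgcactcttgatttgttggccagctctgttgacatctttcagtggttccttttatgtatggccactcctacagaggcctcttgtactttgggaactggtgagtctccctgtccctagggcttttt
ABCB10: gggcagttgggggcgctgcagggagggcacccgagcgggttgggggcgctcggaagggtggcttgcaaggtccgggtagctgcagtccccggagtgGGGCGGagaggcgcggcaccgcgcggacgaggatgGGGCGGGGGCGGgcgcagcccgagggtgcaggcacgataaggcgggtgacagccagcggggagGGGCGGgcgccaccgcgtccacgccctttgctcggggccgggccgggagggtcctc
ABCE1: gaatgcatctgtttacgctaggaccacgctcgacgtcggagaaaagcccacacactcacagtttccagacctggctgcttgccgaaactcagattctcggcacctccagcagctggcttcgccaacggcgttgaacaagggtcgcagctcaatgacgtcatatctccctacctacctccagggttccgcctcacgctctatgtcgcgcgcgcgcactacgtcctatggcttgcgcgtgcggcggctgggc
The ABCB10 window is GC-rich with 4 GC boxes, a pair of them adjacent, and the ABCA7 window has a GC box and a CCAAT box. Over the 300 bases of the RefSeq table, which also hold 50 bases after the start, 35 of the 45 members had a promoter, 26 of them tested. The GC box was in 18 of the 26, against 48.3% of all 27305 genes, and CCAAT was in 8, against 39.7%. The E-box CACGTG, which MYC and the lysosomal factor TFEB can bind, was in 6 (ABCA1, ABCA9, ABCB6, ABCB9, ABCC10 and ABCF1), against 8.77%. The STAT motif TTCNNNGAA was in 1, ABCC5, against 9.38%. The 26 had passed the filter on low counts, while the 27305 genes were taken whether expressed here or not, so these are unlike sets. Over all 35 members with a promoter, the GC box was in 21, CCAAT in 11, the E-box in 8 and the STAT motif in 2. Both strands were searched, and a match is a description of letters, not of binding.

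The classical multidrug pumps ABCB1 (P-glycoprotein) and ABCG2 (the breast cancer resistance protein) were at or near 0. ABCG2 had 0 counts in all 14 libraries, and ABCB1 had 3 counts in the acute drug-alone library (0.0984 CPM) and 0 in the other 13. A count of 0 allows a level of up to 0.0872 to 0.115 CPM, depending on the library, at 3 counts, for counting error alone. ABCC11, another drug efflux pump, reached at most 10 counts in a library and was too low to test. Of the 12 drug efflux members, 9 were tested, of which 4 rose and 1 fell in acute against parental cells, where 62.6% of all genes were called. In FGF2 early against parental cells 2 rose and 2 fell (30.4% of all genes called), and in FL early against parental cells 1 rose and 1 fell (20.7%). In early against acute cells 1 rose and 4 fell (66%).

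ABCC1, or MRP1, exports glutathione conjugates and several anticancer drugs. It was at 28.1, 21.5, 19.4 and 26.1 CPM in FGF2 early, 44.0, 66.3, 66.9 and 22.5 CPM in FL early, 45.1, 45.8 and 47.1 CPM in acute and 48.0, 44.8 and 52.3 CPM in parental libraries. All FGF2 early libraries lay below all acute and parental libraries, while FL early replicate 4 lay within the FGF2 early range and replicates 2 and 3 above every other library. ABCC1 was 2.03-fold lower in FGF2 early than in parental cells (log2 fold change −1.02 ± 0.27 SE, adjusted p = 0.0117) and 2.10-fold lower than in FL early cells (−1.07 ± 0.25, adjusted p = 0.0140). With only the FGF2 early and FL early libraries in the fit, the adjusted p of the difference between these arms was 0.0542. Neither FL early (0.05 ± 0.27, adjusted p = 0.925) nor acute (−0.07 ± 0.29, adjusted p = 0.841) was called against parental.

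ABCC2, or MRP2, exports bilirubin and drug conjugates in liver. Its level was 3.05, 2.87, 3.38 and 3.03 CPM in FGF2 early, 4.16, 2.11, 3.29 and 2.74 CPM in FL early, 11.97, 12.6 and 14.5 CPM in acute and 1.93, 2.29 and 2.05 CPM in parental libraries. The acute libraries stood clear of all others, which lay close together. The acute level was 6.23-fold the parental one (2.64 ± 0.22, adjusted p = 1.23e-07), and the early level 4.23-fold lower than the acute one (−2.08 ± 0.16, adjusted p = 4.24e-08). Against parental cells, FGF2 early was called at the threshold (0.56 ± 0.20, adjusted p = 0.0493), a call lost in 17 of 22 alternatives, including each of the 7 that leave out an FGF2 early or parental library (adjusted p = 0.0591 to 0.153).

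ABCC6, mutated in pseudoxanthoma elasticum and tied to ATP release from cells, averaged 23.0 ± 1.53 CPM in FGF2 early, 22.3 ± 3.15 CPM in FL early, 46.0 ± 5.06 CPM in acute and 15.4 ± 1.68 CPM in parental cells (SD, n = 4, 4, 3 and 3). By library it was at 21.1, 22.4, 24.2 and 24.3 CPM in FGF2 early, 26.5, 22.0, 18.9 and 21.9 CPM in FL early, 50.04, 40.3 and 47.6 CPM in acute and 15.3, 17.1 and 13.7 CPM in parental libraries. All 3 treated arms lay above parental without overlap, the early arms between parental and acute. The log2 fold change against parental was 0.58 ± 0.12 in FGF2 early (adjusted p = 0.00285), 0.54 ± 0.12 in FL early (adjusted p = 0.00801) and 1.58 ± 0.13 in acute cells (adjusted p = 1.2e-07). Reads of ABCC6 can be shared with its partial copy ABCC6P1, which averaged 0.749 CPM in FGF2 early, 0.916 CPM in FL early, 1.48 CPM in acute and 0.236 CPM in parental cells.

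ABCC10, or MRP7, can export taxanes. It was at 58.6, 56.5, 54.4 and 46.7 CPM in FGF2 early, 51.9, 51.4, 55.4 and 57.0 CPM in FL early, 109, 93.7 and 102 CPM in acute and 45.1, 45.1 and 49.3 CPM in parental libraries. The acute libraries stood clear of the rest, FL early libraries lay just above parental ones, and FGF2 early libraries overlapped with them. It rose 2.18-fold in acute cells (1.13 ± 0.09, adjusted p = 9.39e-08) and was 1.88-fold lower in early than in acute cells (−0.91 ± 0.07, adjusted p = 5.8e-08).

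ABCC4, or MRP4, exports cyclic nucleotides and nucleoside analogues and was the efflux member that fell in all 3 treated arms. Its level was 49.7, 47.0, 44.2 and 47.9 CPM in FGF2 early, 38.3, 43.3, 42.9 and 43.2 CPM in FL early, 37.2, 37.9 and 34.0 CPM in acute and 58.0, 57.1 and 51.4 CPM in parental libraries. Every treated library lay below every parental one. The fall against parental was −0.23 ± 0.07 in FGF2 early (adjusted p = 0.0284, lost in 7 of 22 alternatives), −0.41 ± 0.07 in FL early (adjusted p = 0.00236) and −0.61 ± 0.08 in acute cells (adjusted p = 1.26e-05).

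ABCC5, or MRP5, a nucleotide analogue exporter, was at 48.2, 39.9, 38.9 and 45.1 CPM in FGF2 early, 25.7, 32.8, 31.8 and 41.3 CPM in FL early, 43.9, 37.7 and 35.8 CPM in acute and 34.95, 35.2 and 33.3 CPM in parental libraries. It was called in no comparison, the nearest being FGF2 early against FL early (0.39 ± 0.12, adjusted p = 0.0521), whose libraries overlap. ABCC3, or MRP3, stayed at or under 0.721 CPM in every library, at 1 to 22 counts, and was not called.

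ABCA2 and ABCA3, which handle lipids in lysosome-related organelles and have been linked to drug tolerance in leukaemia, differed in level. ABCA2 was at 257, 258, 289.8 and 238 CPM in FGF2 early, 284, 197, 318 and 216 CPM in FL early, 269, 340.2 and 311 CPM in acute and 239, 249.4 and 303 CPM in parental libraries. The arms overlapped and no comparison was called (adjusted p between 0.102 and 0.945). ABCA3 was at 0.262, 0.169, 0.414 and 0.540 CPM in FGF2 early, 0.372, 0.410, 0.0998 and 0.684 CPM in FL early, 0.656, 1.96 and 1.27 CPM in acute and 0.129, 0.111 and 0.432 CPM in parental libraries. It was called higher in acute than in parental cells (2.52 ± 0.68, adjusted p = 0.00500), but from 20, 57 and 33 counts in the acute libraries against 4, 3 and 12 in the parental ones. With the drug-alone library as the only acute one the value was 1.51 (adjusted p = 0.184).

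**Figure D2:**
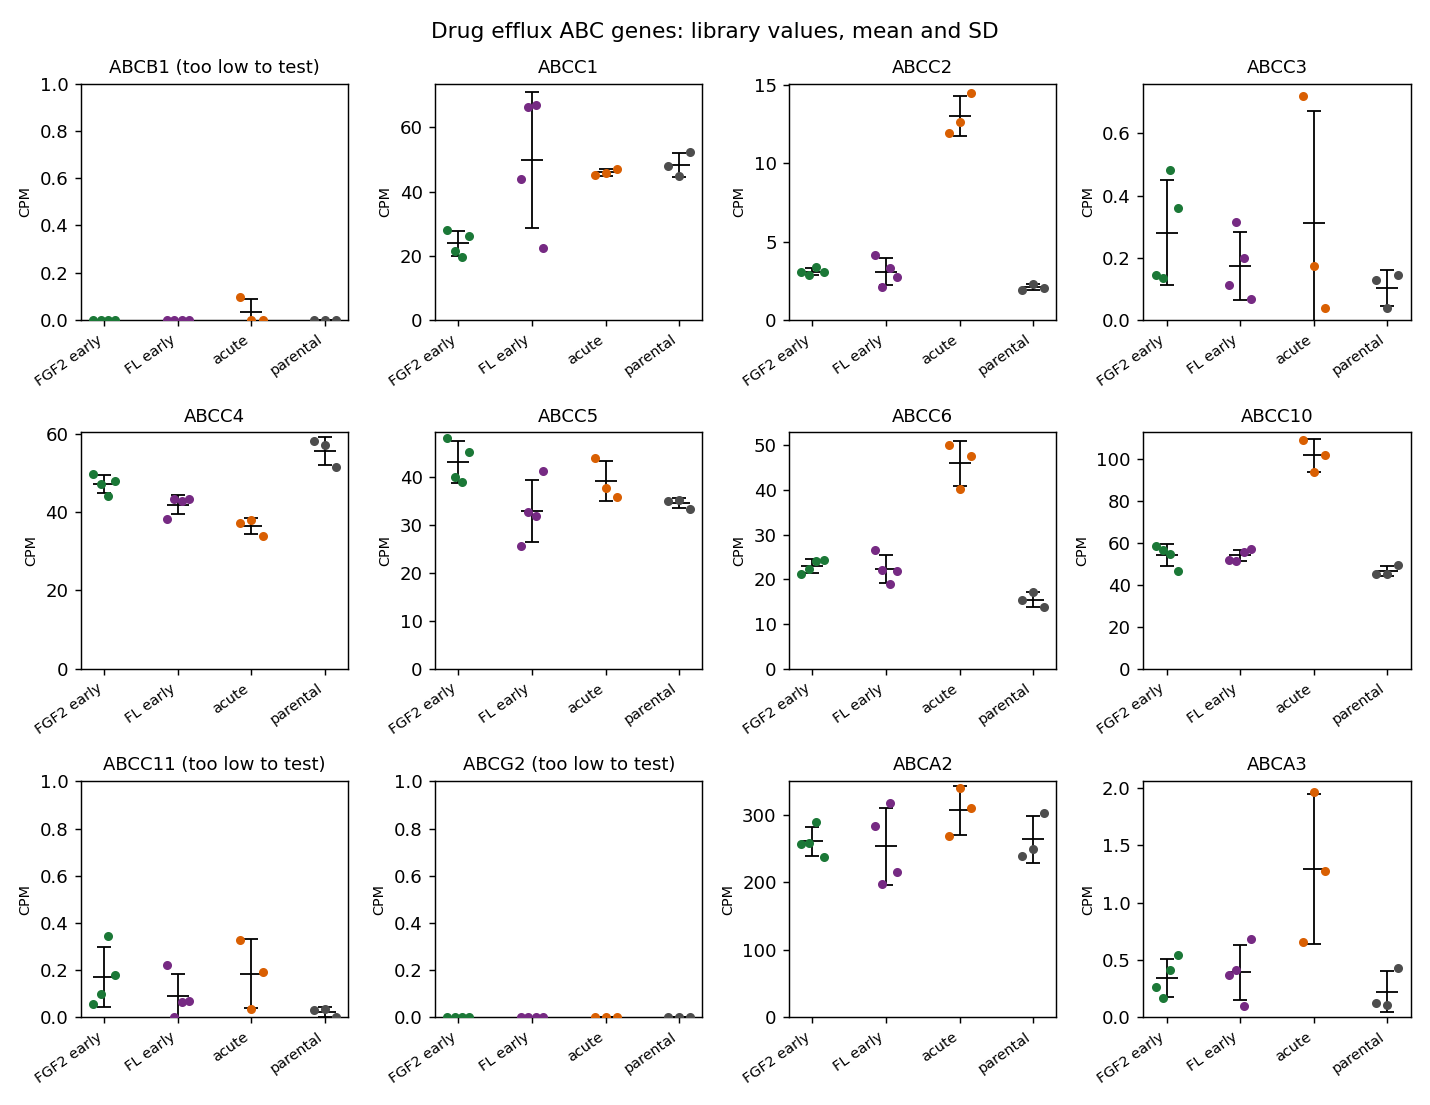
Level in CPM of the 12 drug efflux ABC genes by arm, 1 point per library, with bars at the mean and the mean plus and minus SD (n = 4, 4, 3 and 3 libraries), and each panel with its own axis from 0. ABCB1 and ABCG2 lie at or near 0 in all arms, ABCC2, ABCC6 and ABCC10 stand out in acute libraries, and the FL early points of ABCC1 run between 22.5 and 66.9 CPM.

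Among the lipid exporters, ABCA7, which moves phospholipids to apolipoproteins and takes part in phagocytosis, had the largest rise with acute drug of all tested members. It was at 54.6, 48.6, 41.8 and 39.9 CPM in FGF2 early, 45.5, 32.0, 35.8 and 53.5 CPM in FL early, 346, 222 and 348 CPM in acute and 28.4, 19.1 and 25.8 CPM in parental libraries. The acute libraries lay far above the rest, and every early library lay above every parental one. It rose 12.5-fold in acute cells (3.64 ± 0.24, adjusted p = 1.22e-08), 1.89-fold in FGF2 early cells (0.92 ± 0.21, adjusted p = 0.00466) and 1.70-fold in FL early cells (0.77 ± 0.21, adjusted p = 0.0191) against parental. Early cells were 6.96-fold below acute cells (−2.80 ± 0.16, adjusted p = 3.51e-09). Without parental replicate 2 the FL early value was 0.62 (adjusted p = 0.101).

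ABCA1, the cholesterol exporter that loads apolipoprotein A-I, was low, at 1.31, 3.44, 2.27 and 2.64 CPM in FGF2 early, 0.558, 2.58, 2.03 and 1.68 CPM in FL early, 1.08, 0.309 and 0.192 CPM in acute and 1.13, 0.886 and 0.756 CPM in parental libraries. The highest acute library was the one with drug alone, and it overlapped the early and parental ranges. ABCA1 was called higher in early than in acute cells (1.92 ± 0.54, adjusted p = 0.00608), but with the drug-alone library as the only acute one the value was 0.94 (adjusted p = 0.256). Against parental, FGF2 early had 1.38 ± 0.55 (adjusted p = 0.0717). ABCG1, the partner of ABCA1 in cholesterol export, was at 0.0770 to 0.557 CPM over the 14 libraries and not called, and ABCG4, their relative, was too low to test.

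Of 11 other genes of the LXR sterol response, the receptor pathway that controls ABCA1 and ABCG1, 5 rose and 3 fell in acute against parental cells, with 62.6% of all genes called. SREBF1, the sterol and fatty acid regulator, averaged 44.3 ± 2.68 CPM in acute and 131 ± 3.84 CPM in parental cells (SD, n = 3 each; −1.56 ± 0.23, adjusted p = 4.38e-05). In FGF2 early cells 3 of the 11 rose and 2 fell (30.4% of all genes called), and in FL early cells likewise 3 rose and 2 fell (20.7%), against parental.

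The other tested members of subfamily A were low, none above 4.04 CPM in any library. ABCA5, ABCA6, ABCA9 and ABCA10 are neighbours on chromosome 17, and their roles are less well known. The following were chosen after their values were seen. ABCA10 was at 0.407, 0.777, 0.414 and 0.360 CPM in FGF2 early, 1.15, 0.757, 0.798 and 0.547 CPM in FL early, 2.52, 1.99 and 4.04 CPM in acute and 0.482, 0.295 and 0.540 CPM in parental libraries. The acute libraries lay above all others, and ABCA10 rose in acute against parental cells (2.68 ± 0.41, adjusted p = 5.03e-05), as did ABCA9 (1.64 ± 0.46, adjusted p = 0.00659). ABCA5 was lower in FGF2 early than in parental cells (−1.27 ± 0.43, adjusted p = 0.0390), a call lost in 10 of 22 alternatives, and lower in early than in acute cells (−1.91 ± 0.35, adjusted p = 0.00022). ABCA6 and ABCA13 were not called.

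**Figure D3:**
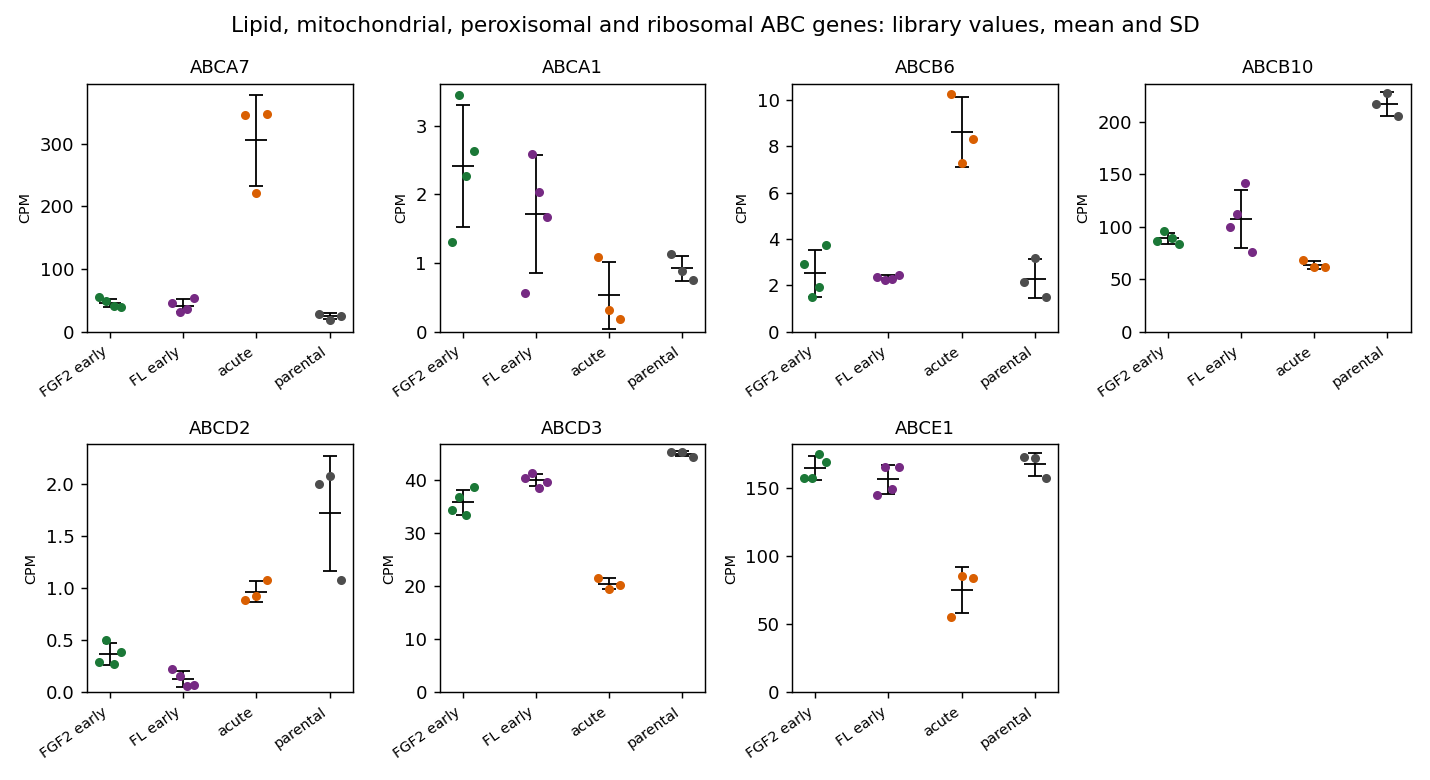
Level in CPM of 7 ABC genes of lipid, mitochondrial, peroxisomal and ribosomal function by arm, 1 point per library, with bars at the mean and the mean plus and minus SD (n = 4, 4, 3 and 3 libraries), and each panel with its own axis from 0. The acute libraries stand above the rest for ABCA7 and ABCB6 and below the rest for ABCD3 and ABCE1, and parental libraries stand above the rest for ABCB10.

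Of the 4 mitochondrial members, ABCB10 fell in all 3 treated arms. It sits in the inner mitochondrial membrane and, in mouse erythroid cells, is needed for haem synthesis. Its level was 86.7, 96.5, 89.5 and 83.4 CPM in FGF2 early, 99.9, 113, 142 and 76.0 CPM in FL early, 68.0, 61.8 and 61.4 CPM in acute and 217, 228 and 206 CPM in parental libraries. No treated library came near the parental ones, and every early library lay above every acute one. ABCB10 was 2.44-fold lower in FGF2 early (−1.29 ± 0.14, adjusted p = 4.19e-05), 2.02-fold lower in FL early (−1.01 ± 0.14, adjusted p = 0.000442) and 3.41-fold lower in acute cells (−1.77 ± 0.16, adjusted p = 3.28e-07) than in parental cells. Early cells were 0.62 ± 0.13 above acute cells (adjusted p = 0.00099), with 0.55 (adjusted p = 0.0602) where drug alone was the only acute library.

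ABCB6, a porphyrin transporter, was at 2.91, 1.49, 1.93 and 3.75 CPM in FGF2 early, 2.38, 2.24, 2.26 and 2.46 CPM in FL early, 10.3, 7.29 and 8.32 CPM in acute and 2.15, 3.18 and 1.51 CPM in parental libraries. The acute libraries were separate from all others and the rest overlapped. It was 3.78-fold higher in acute than in parental cells (1.92 ± 0.32, adjusted p = 0.000123) and 3.55-fold lower in early than in acute cells (−1.83 ± 0.24, adjusted p = 1.13e-05). ABCB8, an inner membrane transporter, was between 31.7 and 55.0 CPM in all libraries. ABCB8 was higher in FGF2 early than in parental cells (0.49 ± 0.13, adjusted p = 0.00995).

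Among 15 other genes of haem and iron-sulphur cluster synthesis, 7 rose and 5 fell in acute against parental cells, with 62.6% of all genes called. The haem synthesis enzyme PPOX averaged 39.8 ± 0.812 CPM in acute and 13.6 ± 0.532 CPM in parental cells (1.55 ± 0.14, adjusted p = 3.3e-07). GLRX5, an iron-sulphur cluster carrier, averaged 16.5 ± 1.94 CPM in acute and 45.8 ± 3.01 CPM in parental cells (SD, n = 3 each; −1.47 ± 0.11, adjusted p = 7e-08). In FGF2 early cells 2 of the 15 rose and 5 fell (30.4% of all genes called), and in FL early cells 2 rose and 3 fell (20.7%), against parental.

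ABCD3, the abundant peroxisomal membrane protein that imports branched-chain and bile acid precursors, was at 34.2, 36.7, 33.4 and 38.5 CPM in FGF2 early, 40.2, 41.2, 38.5 and 39.6 CPM in FL early, 21.5, 19.4 and 20.2 CPM in acute and 45.1, 45.1 and 44.3 CPM in parental libraries. All treated libraries lay below parental, the acute ones lowest. The fall against parental was −0.33 ± 0.07 in FGF2 early (adjusted p = 0.00296) and −1.14 ± 0.08 in acute cells (adjusted p = 1.46e-08), and FL early had −0.17 ± 0.07 (adjusted p = 0.0997).

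ABCD2, a peroxisomal fatty acid transporter, was low and was chosen for description after its values were seen. It was at 0.291, 0.507, 0.276 and 0.390 CPM in FGF2 early, 0.223, 0.158, 0.0665 and 0.0684 CPM in FL early, 0.885, 0.928 and 1.08 CPM in acute and 1.99, 2.07 and 1.08 CPM in parental libraries. The 2 early arms lay below acute and parental and did not overlap with each other, FL early being lowest. ABCD2 was lower in FGF2 early (−2.22 ± 0.37, adjusted p = 0.000714) and in FL early cells (−3.70 ± 0.42, adjusted p = 6.96e-05) than in parental cells, and higher in FGF2 early than in FL early cells (1.48 ± 0.42, adjusted p = 0.0329, lost in 7 of 21 alternatives). These rest on 46 counts in FGF2 early, 15 in FL early and 148 in parental libraries. By summed counts FL early held 7.39% of the parental level, with an exact 95% interval of 4.03% to 12.6% for counting error only.

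ABCD4, which works in lysosomal export of cobalamin, was at 25.2 to 25.9 CPM in FGF2 early, 19.0 to 27.1 CPM in FL early, 32.8 to 38.0 CPM in acute and 18.8 to 19.5 CPM in parental libraries. It rose in FGF2 early (0.41 ± 0.11, adjusted p = 0.0108) and in acute cells (0.88 ± 0.11, adjusted p = 1.17e-05) against parental. Of 8 other peroxisome genes, 3 rose and 1 fell in acute against parental cells, with 62.6% of all genes called. The one that fell was PEX3, a docking factor for peroxisomal membrane proteins such as ABCD3, at 5.81 ± 0.755 CPM in acute and 16.7 ± 2.17 CPM in parental cells (SD, n = 3 each; −1.52 ± 0.13, adjusted p = 1.6e-07).

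ABCE1 splits ribosomes into subunits at the end of translation. Its level was 157, 157, 175 and 169 CPM in FGF2 early, 145, 165, 149 and 165 CPM in FL early, 55.4, 85.7 and 84.0 CPM in acute and 172, 172 and 157 CPM in parental libraries. The early and parental libraries overlapped, and the acute ones lay below all of them, the drug-alone library lowest. ABCE1 was 2.23-fold lower in acute than in parental cells (−1.16 ± 0.13, adjusted p = 2.68e-06) and 2.14-fold higher in early than in acute cells (1.10 ± 0.11, adjusted p = 9.81e-07). FGF2 early (−0.02 ± 0.12, adjusted p = 0.899) and FL early (−0.10 ± 0.12, adjusted p = 0.597) were not called against parental.

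Of the subfamily F members, which act in translation, ABCF1 and ABCF2 fell and ABCF3 rose in acute against parental cells. ABCF2 was at 65.4, 83.4 and 83.5 CPM in acute and 121, 129 and 124 CPM in parental libraries, with no overlap (−0.69 ± 0.10, adjusted p = 3.95e-05). ABCF1 was at 39.6, 53.0 and 38.1 CPM in acute and 71.6, 56.1 and 64.1 CPM in parental libraries (−0.55 ± 0.18, adjusted p = 0.0169), and its reads can also go to alternative sequences of the MHC region, where it lies. ABCF3 was at 56.4, 59.5 and 54.3 CPM in acute and 47.3, 49.8 and 46.5 CPM in parental libraries (0.25 ± 0.08, adjusted p = 0.0133, lost in 4 of 22 alternatives). None of the 3 was called in FGF2 early or FL early against parental. Of 9 other genes of ribosome recycling and translation control, 4 fell and none rose in acute against parental cells (PELO, HBS1L, ETF1 and GSPT1), with 62.6% of all genes called. In early against acute cells 6 of the 9 rose and 2 fell, with 66% of all genes called. GSPT1, the release factor partner of ETF1, averaged 88.2 ± 14.2 CPM in acute and 227 ± 6.82 CPM in parental cells (SD, n = 3 each; −1.37 ± 0.10, adjusted p = 3e-08).

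**Figure D4:**
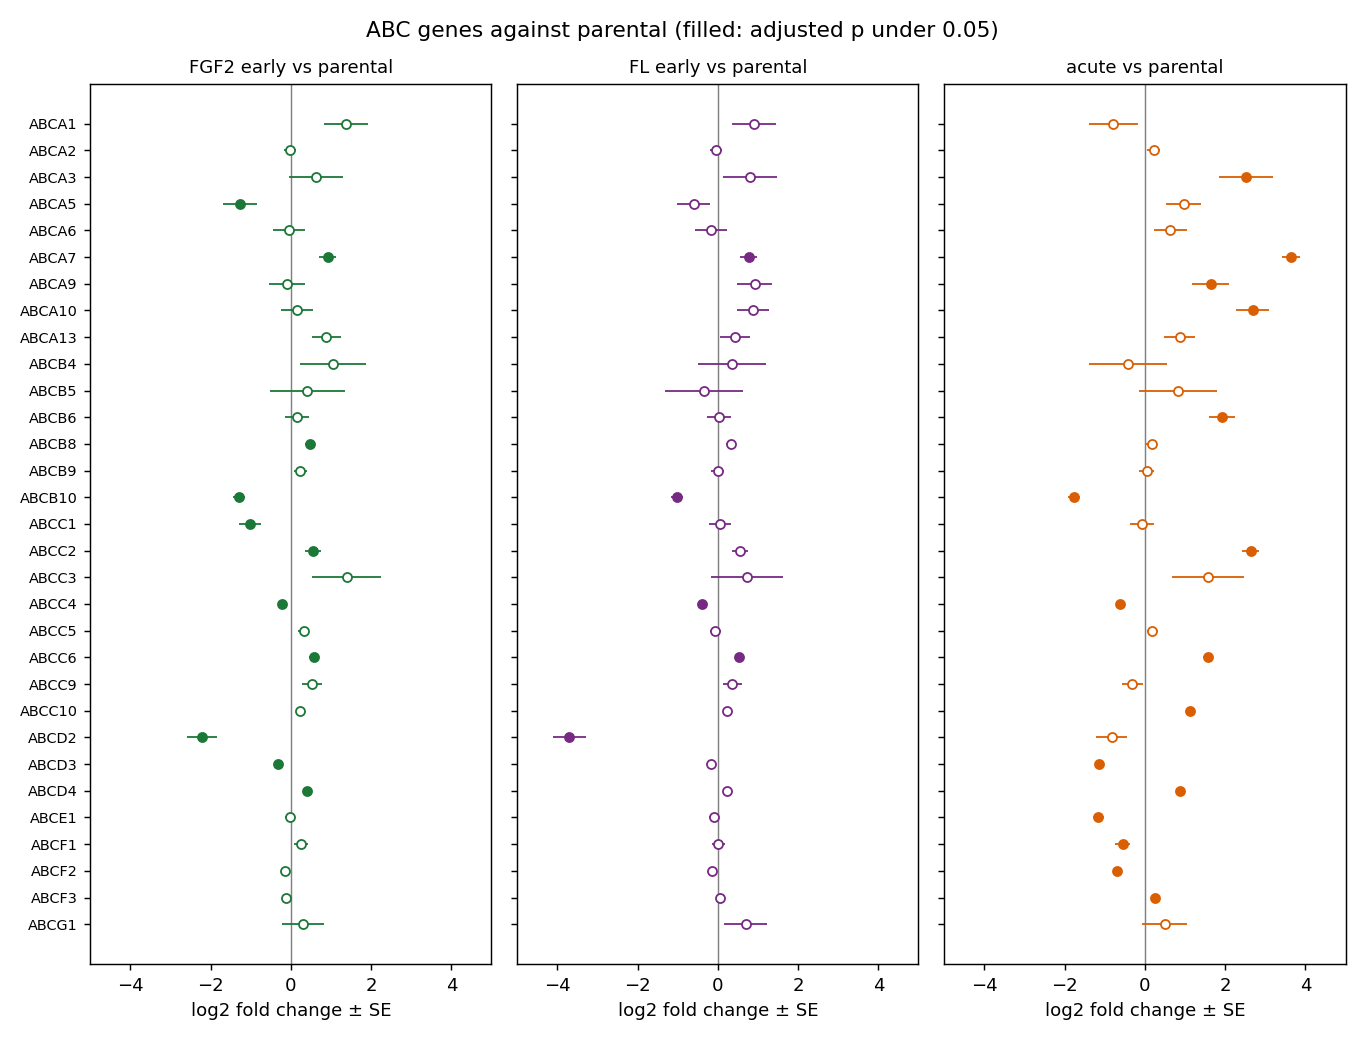
Log2 fold change with its standard error for 31 of the 33 tested ABC genes against parental cells, in FGF2 early, FL early and acute cells, filled where the adjusted p was under 0.05. The points of acute cells spread furthest, up to 3.64 for ABCA7, and the lowest point is ABCD2 in FL early cells at −3.70.

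The 12 members that were not tested held few counts. ABCA4, ABCC8, ABCC12 and ABCG2 had 0 counts in all libraries, and ABCA12 and ABCG8 had 1 count in all. ABCG4, ABCB11, ABCG5, ABCC11 and ABCA8 had 8, 17, 26, 49 and 58 counts over the 14 libraries, and no untested member passed 0.361 CPM in any library. Among tested members, ABCB4 (a phospholipid exporter of liver), ABCB5 and ABCC3 were also under 1 CPM throughout. ABCB9, the lysosomal peptide transporter, was at 3.64 to 6.34 CPM and not called. ABCC9, a regulatory subunit of potassium channels, was at 1.43 to 2.58 CPM in early and 0.951 to 1.42 CPM in acute libraries and was higher in early than in acute cells (0.76 ± 0.22, adjusted p = 0.0076). In mean level, 16 members were at 10 CPM or more in FGF2 early, 16 in FL early, 17 in acute and 16 in parental cells.

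Of 3 ABC proteins with other symbols, TAP2, a subunit of the antigen peptide transporter, averaged 57.0 ± 2.93 CPM in FGF2 early, 49.4 ± 9.13 CPM in FL early, 18.0 ± 2.96 CPM in acute and 62.4 ± 4.49 CPM in parental cells (SD, n = 4, 4, 3 and 3). It fell in acute against parental cells (−1.80 ± 0.15, adjusted p = 1.2e-07). Its partner TAP1 was not called (−0.10 ± 0.26, adjusted p = 0.765), and CFTR was too low to test. TAP1 and TAP2 lie in the MHC region, so their reads too can go to its alternative sequences.

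Per length, in CPM per kilobase of the median coding transcript, the order of members depended on the length used. In parental cells the highest levels were ABCF2 at 121 ± 3.82, ABCE1 at 71.1 ± 3.61, ABCB10 at 56.3 ± 2.88, ABCD3 at 50.7 ± 0.527 and ABCA2 at 32.5 ± 4.22 CPM per kilobase (SD, n = 3). With the longest coding transcript, an alternative added after seeing the data, the order was ABCB10 at 56.3 ± 2.88, ABCE1 at 42.7 ± 2.17, ABCF2 at 35.2 ± 1.11 and ABCA2 at 32.3 ± 4.20 CPM per kilobase, and the last pair did not differ beyond their spread. In acute cells ABCA7 was first by both lengths, at 219 ± 51.8 and at 44.8 ± 10.6 CPM per kilobase, and by the longest transcript its spread reached that of ABCA2 at 37.6 ± 4.40. In FGF2 early and FL early cells ABCF2 and ABCE1 were the first pair by the median length, and ABCE1 was first by the longest.

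Set directly against FL early cells, FGF2 early cells had 2 members higher, ABCD2 among them, and 1 lower (ABCC1), with 13.6% of all genes called (4% higher, 9.56% lower) and 5.19% with at least a 2-fold change. ABCD2 and ABCC1 passed 2-fold. Several members varied more among FL early than among FGF2 early flasks, among them ABCC1 (SD of 4.01 CPM in FGF2 early and 21.2 CPM in FL early, n = 4 each) and ABCB10 (SD of 5.59 CPM in FGF2 early and 27.3 CPM in FL early). Others varied less, among them ABCB6 (SD of 1.01 CPM in FGF2 early and 0.105 CPM in FL early) and ABCF2 (10.8 and 7.40 CPM). FL early replicate 4 had the lowest ABCB10 and ABCC1 of its arm and the highest ABCA7, and these differences in spread were not tested.

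Within the acute arm, drug alone, drug with FGF2 and drug with FL had 1 library each, so ligand effects there have no replicate check. ABCA7 was lower with FGF2 (222 CPM) and close to drug alone (346 CPM) with FL (348 CPM). ABCE1 was higher with FGF2 (85.7 CPM) and with FL (84.0 CPM) than with drug alone (55.4 CPM). The 3 libraries were close for ABCB10 (61.4 to 68.0 CPM), ABCC1 (45.1 to 47.1 CPM) and ABCD3 (19.4 to 21.5 CPM).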

How the data were processed

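Poly(A) RNA of 14 MOLM14 libraries was sequenced after stranded TruSeq preparation, per the labels' protocols. The deposited values are estimated counts per gene from kallisto, with GRCh37 named as the build, per the submitters' processing notes. The kallisto version, the strand setting and how transcripts were summed to genes are not given in the sources used here, so reads of overlapping antisense genes may not be told apart. Values were not normalized by the authors, as library totals differ.

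Estimated counts were rounded, genes with low counts were removed (filterByExpr, minimum count 10, minimum total 15), and all 14 libraries were fitted in 4 arms by the robust quasi-likelihood test of edgeR 4.0.16 (R 4.3.3) with TMM scaling, Benjamini-Hochberg adjustment over 15756 genes and a threshold of 0.05. Early against acute took the average of both early arms. CPM used TMM library sizes. SE is the log2 fold change divided by the root of the F statistic. These depths leave counting error small for members above 10 CPM and large for those under 1 CPM, and intervals and floors cover counting error only. No 2 libraries agreed within sampling noise (mean chi-square per gene 5.40 to 56.0). Gene names, types and transcript lengths came from GENCODE 29, and promoters from RefSeq (GRCh38.p14).

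Members and lists were chosen with earlier results of these data known. Values in every library are given for tested members whose mean log2 CPM was 0 or more and that had a called change of at least 2-fold in 1 of the 5 comparisons (11 members), and for tested drug efflux members (9), 16 in all. 2 tested members are not reported here singly, but stay in the fits, sums and counts. The scripts were tested on simulated counts. Alternatives changed scaling, filter, test (DESeq2 1.42.0, limma-voom with limma 3.58.1), model, acute arm and libraries fitted, added the replicate number as a block, or left out each library in turn. Python 3.11.15 and matplotlib 3.10.9 drew the figures.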

Additional observations from a re-analysis of the deposited data

Results flagged for a closer look

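In 4 of 66 sets of 4 early libraries (33 tested members in each early arm) 1 library stood far from the other 3, and chance gives about 1 in 20 such sets. FL early replicate 3 had ABCA6 at 2.19 CPM, with the others at 0.781 to 0.958 CPM. FGF2 early replicate 2 had ABCA10 at 0.777 CPM, with the others at 0.360 to 0.414 CPM. FL early replicate 2 had ABCA13 at 0.221 CPM, with the others at 0.366 to 0.376 CPM. FL early replicate 1 had ABCC4 at 38.3 CPM, with the others at 42.9 to 43.3 CPM. The first 3 of these genes are low, with few counts in a library.

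The change against parental cells differed between the early arms for ABCC1 and ABCD2 by the direct test of FGF2 early against FL early. The log2 difference was −1.07 for ABCC1 and 1.48 for ABCD2.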

How the results depend on the processing

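The 16 members that the rule for values in every library takes gave 35 calls over the 5 comparisons. Of these, 26 were kept in all 22 alternatives run for each, 9 were lost in at least 1, and none reversed. The count of members called in FGF2 early against parental cells was 11, and 7 with the replicate block or without parental replicate 1. In FGF2 early against FL early cells it was 3, and 1 with no low-count filter, 0 with only those libraries fitted and 1 with the replicate block. In the fit with 0 calls, 7 of 28 members had an unadjusted p under 0.05 in edgeR, a count not set against that of all genes. After adjustment that fit called 1464 of 14512 genes. Over all libraries DESeq2 called 4 members and limma-voom 3. Without FGF2 early replicate 2 or 4, or FL early replicate 2 or 3, that count was 1, and without FL early replicate 4 it was 6. Leaving out 1 library gave 7 to 13 members in FGF2 early against parental, 4 to 7 in FL early against parental, 1 to 6 in FGF2 early against FL early, 16 to 19 in acute against parental and 22 to 24 in early against acute cells. Over all genes these ranges were 3283 to 5444, 1512 to 3943, 1351 to 3274, 9066 to 10083 and 9602 to 10527. FL early against parental called 1651 genes without parental replicate 1 and 1512 without replicate 2, against 3259 with all. FGF2 early against FL early called 2137 genes with all libraries, 1389 and 1351 without FGF2 early replicate 3 and 4, 1362 and 1368 without FL early replicate 2 and 3, and 3274 without FL early replicate 4. FGF2 early against parental called 3369 and 3283 genes without parental replicate 1 and 2, against 4793. By the longest coding transcript, in place of the median, ABCF2 had 35.2 in place of 121 and ABCE1 42.7 in place of 71.1 CPM per kilobase in parental cells. The cause of these shifts was not tested, except that the last follow from the lengths themselves.

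Replicate numbers of the labels did not pair libraries: deviations of same-numbered libraries correlated at −0.0939 to 0.0658 over 10 pairs. With the replicate block, FGF2 early against parental cells was not called for ABCC1 (adjusted p = 0.0883), ABCC2 (0.107) or ABCC4 (0.0541), nor FGF2 early against FL early cells for ABCC1 (0.0686). It was not run where the acute arm enters. Upper quartile scaling moved the median of all genes in acute against parental cells to 0.18, against 0.07 with TMM. In early against acute cells it moved to −0.16, against −0.04. With this scaling 13 members were called higher and 6 lower in acute against parental cells, where 5772 of all 15756 genes were higher and 4232 lower. In early against acute cells 8 members were higher and 15 lower, where 4292 of all genes were higher and 6208 lower. Members under 1 CPM have too few counts for small changes to be detected.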
